A study of Mus musculus with 2 samples.

Results

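Mir744, Mir652, Mir425, Mir191 and Mir378a are abundant miRNA genes that lie in or beside protein-coding genes. They are 5 of 2005 miRNA genes with a value in the series. They were picked by name with their counts known, so their high level is what chose them and is given as a description. Mir744, Mir652 and Mir425 were read from their own strand. Mir191 and Mir378a do not stand in the files under their own identifiers, and their values are the reads on the strand opposite to the listed genes Gm24083 and Gm25301, which overlap them.

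Both libraries hold small RNA of limb from B6NCrl mouse embryos at 11.5 days, with sexes pooled and no treatment or genetic change named. Replicate 1 pooled 109 embryos and replicate 2 pooled 88. The labels give both pools a single donor identifier, so every spread and p-value measures how these 2 libraries differ and may be technical. No other tissue, age or treatment is in the series.

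MiRNAs are cut from hairpin precursors in the nucleus and the cytoplasm, and the mature strand guides a silencing complex to messenger RNAs, mainly through its seed. Many hairpins lie in introns of protein-coding genes and can be released from the host's transcript during splicing, while others have promoters of their own. The host and the miRNA can therefore share transcription. The small RNA libraries measure only the miRNA.

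The mature strands of Mir744, Mir652, Mir425 and Mir191 are shown because the seed decides which messages a miRNA can pair with, and because the counts add both arms of a hairpin. They are from RefSeq on GRCm38.p6, which held 4 of the 5 miRNAs. Capitals mark the seed, bases 2 to 8 from the 5′ end.
mmu-miR-744-5p: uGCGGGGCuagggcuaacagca
mmu-miR-744-3p: cUGUUGCCacuaaccucaaccu
mmu-miR-652-5p: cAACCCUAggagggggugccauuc
mmu-miR-652-3p: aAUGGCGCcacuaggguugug
mmu-miR-191-5p: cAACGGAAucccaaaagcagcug
mmu-miR-191-3p: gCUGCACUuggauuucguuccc
mmu-miR-425-5p: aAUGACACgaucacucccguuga
mmu-miR-425-3p: aUCGGGAAugucguguccgcc
mmu-miR-489-3p: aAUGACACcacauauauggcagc

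No seed was shared among these 4 miRNAs, although Mir191 and Mir425 are neighbours. Among the 1738 mature entries of the table, 1 other strand carried a seed of theirs: mmu-miR-489-3p has the seed of mmu-miR-425-5p. Mir489 had 0 counts in replicate 1 and 1 in replicate 2, below the 3 counts that set the detection floor, which come to 1.02 CPM in replicate 1 and 0.867 CPM in replicate 2. CPM is the count divided by the library's total of sense-strand counts and multiplied by 1000000. Of the hairpins that hold this seed in the table, Mir425 alone was above the floor; its arms cannot be told apart in the counts.

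The hairpins are shown to make clear what a count covers: any read within the whole run, from either arm. For Mir191 the count covers the 120 bases of Gm24083, which extend 24 and 22 bases beyond the hairpin. Here capitals mark both mature arms.
Mir744: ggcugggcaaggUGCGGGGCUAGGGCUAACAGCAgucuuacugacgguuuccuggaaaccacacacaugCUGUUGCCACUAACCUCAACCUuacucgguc
Mir652: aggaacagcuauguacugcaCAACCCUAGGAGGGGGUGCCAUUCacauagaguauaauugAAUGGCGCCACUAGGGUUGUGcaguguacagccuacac
Mir191: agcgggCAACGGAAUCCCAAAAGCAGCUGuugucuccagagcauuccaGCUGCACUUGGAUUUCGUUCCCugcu
Mir425: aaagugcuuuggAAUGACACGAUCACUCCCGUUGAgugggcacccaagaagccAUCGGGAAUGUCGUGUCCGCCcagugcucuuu

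The 4 hairpins printed were 74 to 100 bases long with a GC content of up to 56.0%, and their mature arms were 21 to 24 bases. None of these arms was found whole in another hairpin of the table. None of the 4 hairpins shares a 20-base stretch with a miRNA gene annotated at another position. Genes that overlap in position, as Gm24083 and Mir191 do, were left out of that comparison. Levels are not scaled by hairpin length, because the libraries hold RNA under 30 bases and a read stands for 1 mature strand. Mir378a shares a 20-base stretch with Mir378c, so reads that fit both would be lost to the multimapping class. Mir378c itself had 14 and 13 counts in replicates 1 and 2. Mir378b, which carries the same number, had 1 and 2 counts, and Mir378d had 27 and 24.

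The hosts differ in function and in where they hold the hairpin. Mir744 (ENSMUSG00000076460.1) lies on chromosome 11 from 65734733 to 65734832, minus strand, on assembly mm10. It is in intron 3 of the 10 introns of the principal transcript of Map2k4, a kinase that activates the JNK and p38 stress pathways. That intron is 15588 bases long, and all 5 Map2k4 transcripts that span the hairpin carry it in an intron. Mir652 (ENSMUSG00000076011.1) lies on chromosome X from 142739000 to 142739097, plus strand. It is in intron 2 of 6 of Tmem164, which encodes a membrane protein. That intron is 69090 bases long, and all 7 transcripts that span the hairpin carry it in an intron.

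Mir378a lies on chromosome 18 from 61397835 to 61397900, minus strand. It is in intron 1 of 11 of Ppargc1b, a coactivator that drives genes of mitochondrial energy metabolism, 2531 bases after the start of the host. The listed gene Gm25301 (ENSMUSG00000093026.1) spans it on the plus strand, from 61397813 to 61397925. So 3 of the 5 miRNAs lie in introns of a host on the same strand.

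Mir191 and Mir425 form a cluster on the plus strand of chromosome 9, and the annotations differ on their host. Mir191 lies from 108568319 to 108568392 and Mir425 (ENSMUSG00000065579.1) from 108568777 to 108568861, with 384 bases between them. RefSeq places both inside Dalrd3, which is named for an anticodon-binding domain and acts with a methyltransferase on transfer RNA. Its Dalrd3 starts 835 bases before Mir191. GENCODE M21 starts Dalrd3 at 108569886, which leaves 1493 bases between Mir191 and the gene and 1024 bases between Mir425 and the gene. In that annotation both hairpins lie instead in the long noncoding gene 4833445I07Rik. Mir191 is exonic in 1 of the 2 transcripts of it that span the hairpin, and Mir425 is exonic in the 1 that spans it. The label of a protein-coding host therefore holds for this pair by RefSeq and not by GENCODE M21.

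**Figure D1:**
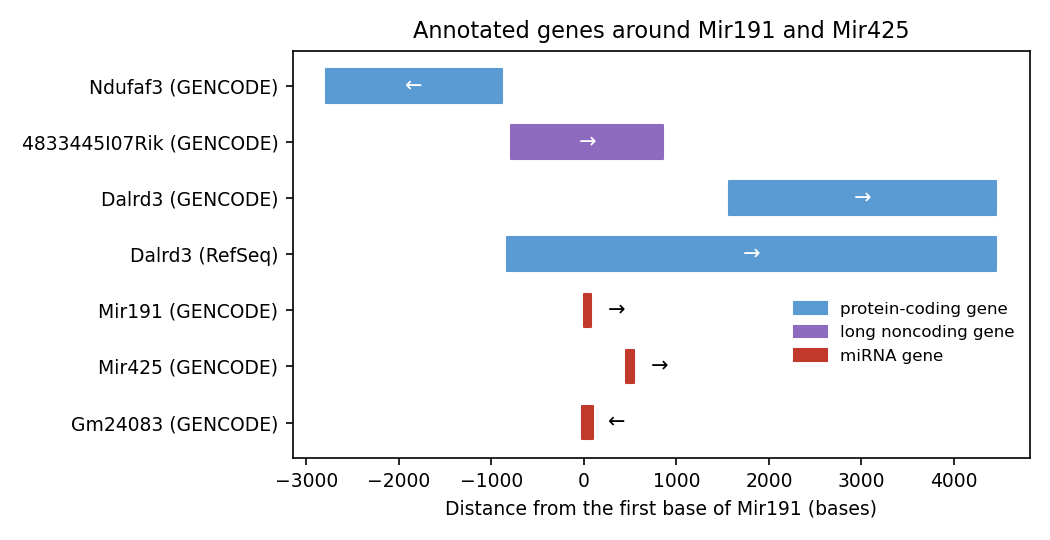
Annotated genes around Mir191 and Mir425, drawn to scale as distance in bases from the first base of Mir191, with arrows for strand. Both hairpins lie inside Dalrd3 as RefSeq draws it, but in 4833445I07Rik and before Dalrd3 as GENCODE draws it; Gm24083 covers Mir191 on the opposite strand.

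Gm24083 (ENSMUSG00000092915.1) is 120 bases long, on the minus strand from 108568295 to 108568414. It covers all 74 bases of Mir191 with 24 and 22 bases to spare. Its own strand held 1 count in replicate 1 and 0 in replicate 2, while the opposite strand, that of Mir191, held 6535 and 7554. At Gm25301 the own strand held 0 counts in both libraries and the strand of Mir378a held 8593 and 9728. All but 1 read at these 2 listed genes thus came from the strand of the known miRNA. Of the 63 listed genes with any opposite-strand count, Gm25301 ranked 4 and Gm24083 ranked 5. Mir744, Mir652 and Mir425 had 0 counts on the opposite strand in both libraries.

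The files hold 2953085 sense counts in replicate 1 and 3459176 in replicate 2. Multimapping reads, which are in no gene's count, were 24.7% and 23.4% of all reads. Limb mesenchyme markers (Mir199a-2, Mir199b, Mir214 and Mir140) summed to 5.67% and 5.26% of sense counts, epithelial markers to 1.32% and 1.53%, and the endothelial Mir126a to 2.43% and 2.41%. Blood markers (Mir223, Mir451a and Mir144) summed to 0.0626% and 0.077%, and the skeletal muscle pair Mir206 and Mir133b to 0.056% and 0.0576%. Mir214 gave most of the mesenchyme sum, at 40112 and 38032 CPM. Mir140, known as a cartilage miRNA, gave 14609 and 12919 CPM of it in replicates 1 and 2. Mir199a-2, Mir199b and Mir133b share hairpin sequence with other genes, which can lower their counts. All 17 markers reached 10 CPM in both libraries. A miRNA level in this whole tissue cannot tell fewer cells from less RNA per cell.

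Mir744 and Mir652 stood far above the other members. Mir744 had 29818 counts in replicate 1 and 36726 in replicate 2. These are levels of 10097 CPM (Wilson 95% interval 9984 to 10212) and 10617 CPM (10509.5 to 10725.5). Its mean was 10357 ± 368 CPM (SD, n = 2), or 1.04% of sense counts, and it ranked 21 of the 2005 miRNA genes in each library. These intervals and the floor reflect counting alone, since reads copied by PCR are not separate molecules.

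Mir652 had 29341 and 33560 counts, or 9936 CPM (9823 to 10049.5) and 9702 CPM (9599 to 9806). Its mean was 9819 ± 165 CPM (SD, n = 2), and it ranked 22, the next place below Mir744, in each library. Mir744 was 1.02-fold above Mir652 in replicate 1 and 1.09-fold in replicate 2. The mean log2 ratio was 0.08 ± 0.08 (SD, n = 2), about the size of its spread. Mir744 was the higher in both libraries, and the counting intervals of the 2 miRNAs overlapped in replicate 1 and not in replicate 2.

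Mir378a came next, with 8593 and 9728 counts. Its levels were 2909.8 CPM (2849 to 2972) and 2812 CPM (2757 to 2869), a mean of 2861 ± 69.0 CPM (SD, n = 2). It ranked 59 in replicate 1 and 61 in replicate 2. Mir652 exceeded it by 1.78 ± 0.01 log2 units, with a counting error of 0.02 in each library. The miRNA of the mitochondrial coactivator gene was thus 3.43-fold below Mir652 and 3.62-fold below Mir744 in mean ratio, far beyond the spread between libraries. Mir378a reads that also fit Mir378c would be missing from these ratios, and the spread between libraries does not measure such a loss.

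The Dalrd3 pair closed the order. Mir191, a miRNA found in many tissues, had 2213 CPM in replicate 1 (2159.99 to 2267) and 2184 CPM in replicate 2 (2135 to 2233.5). Its mean was 2198 ± 20.6 CPM (SD, n = 2), at rank 69. Mir425 had 5047 and 6686 counts, or 1709 CPM (1663 to 1757) and 1933 CPM (1887 to 1979.7). Its mean was 1821 ± 158 CPM (SD, n = 2), at rank 80. Mir425 had the widest spread of the 5, with a coefficient of variation of 8.69% against 0.939 to 3.55% for the other 4.

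Set against the sense total, the counts of the 5 miRNAs together came to 2.69% in replicate 1 and 2.72% in replicate 2. The opposite-strand reads of Mir191 and Mir378a are not part of that total. All 5 reached 1000 CPM in both libraries, as did 4.99% of the 2005 genes; since level chose them, nothing is read from this. Mir744 stood 34.9-fold above the median of the 305 genes that reached 10 CPM in both libraries, and Mir425 stood 6.14-fold above it.

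**Figure D2:**
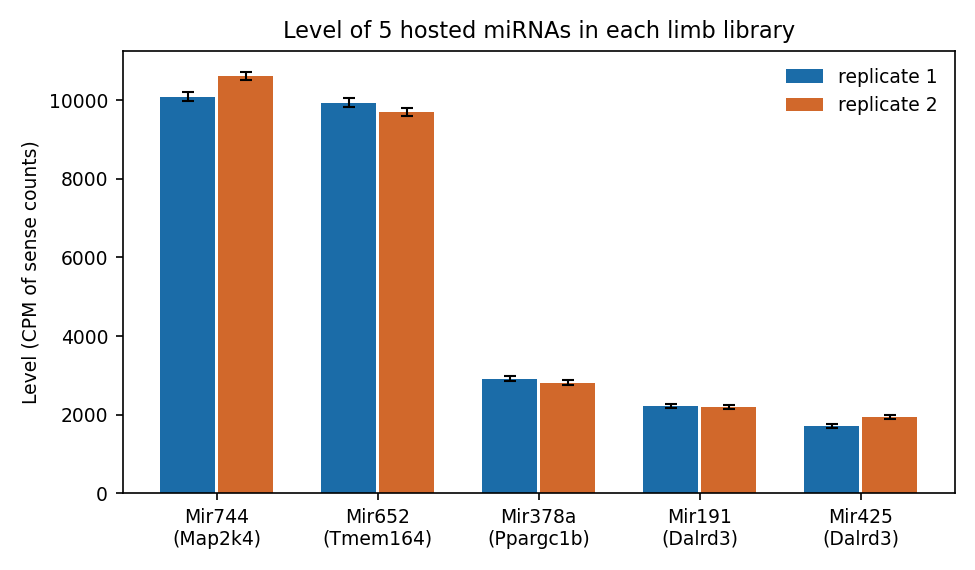
Level of each miRNA in CPM of sense counts (bars, from 0) in replicate 1 and replicate 2, with Wilson 95% counting intervals and the host in brackets. Mir744 and Mir652 lie between 9702 and 10617 CPM in both libraries, and the other 3 between 1709 and 2909.8 CPM.

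**Figure D3:**
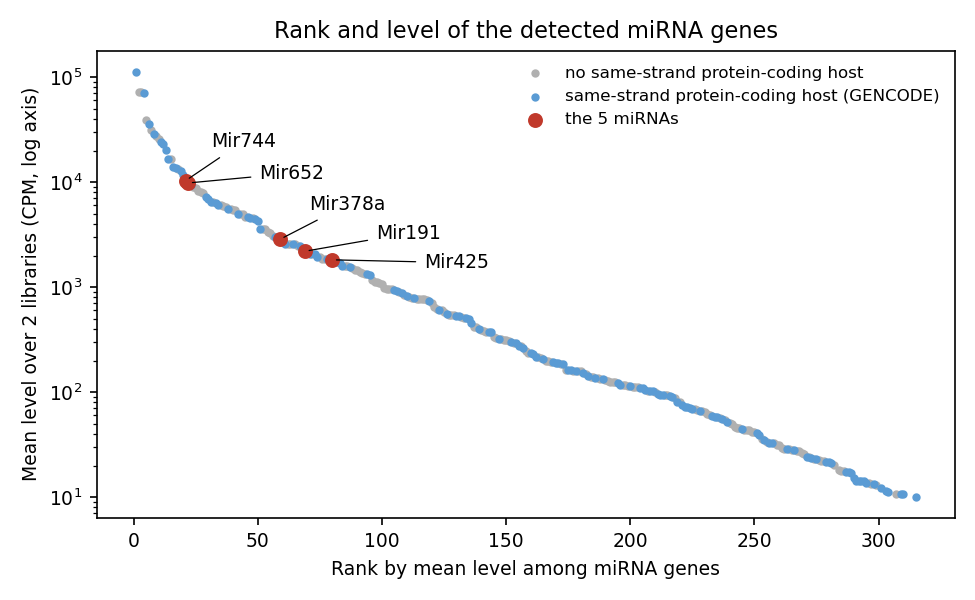
Mean level over both libraries (CPM, log axis) against rank for the miRNA genes that reached 10 CPM in both; blue points lie inside a same-strand protein-coding gene by GENCODE M21. The 5 miRNAs, in red, take ranks 21, 22, 59, 69 and 80.

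Mir191 and Mir425, cut from 1 cluster, were close in level. Mir191 exceeded Mir425 1.29-fold in replicate 1 and 1.13-fold in replicate 2. The log2 ratio was 0.27 ± 0.14 (SD, n = 2). The ratio of replicate 2 minus that of replicate 1 was -0.20, with a counting error of 0.04 on that difference. Mir425 was at 1709 and 1933 CPM and Mir191 at 2213 and 2184 CPM. Counting error leaves out the spread between libraries: the log2 ratio of Mir425 between the libraries, 0.16, lay within the 90th percentile of 0.20 for features at 1000 CPM or more, and Mir425 did not pass the test with the mean overdispersion. The host list gives 9 more ratios between a host's most abundant hairpin and a mate. Their mean ratios ran from 1.09-fold for Mir93 over Mir106b in Mcm7 to 185-fold for Mir30e over Mir30c-1 in Nfyc, a pair where Mir30c-1 shares sequence with another gene. The Dalrd3 ratio was thus among the 3 that stayed under 1.5-fold, with Mir93 over Mir106b and Mir188 over Mir532 in Clcn5 at 1.12-fold. Which share of such ratios comes from sequence-dependent library preparation was not tested.

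The 5 miRNAs differed in the sign of their log2 ratio between the libraries, by amounts within the usual range given below. Each gene's counts in the libraries were set against their TMM-scaled totals in an exact binomial test, two-sided, and p-values were adjusted by Benjamini-Hochberg over all 440 sense and opposite-strand features of 10 or more counts. The test called 21.6% of these features (9.55% higher and 12% lower in replicate 2). Among the 100 features at a mean of 1000 CPM or more, where small differences pass, it called 65%. It called 4 of the 5 miRNAs, which at such levels is close to the background.

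Mir425 and Mir744 were higher in replicate 2. Mir425 had a log2 ratio of 0.16 (counting error 0.03, adjusted p = 1.05e-08, exact binomial test) and Mir744 of 0.06 (0.01, adjusted p = 1.26e-06). Mir652 and Mir378a were lower in replicate 2. Mir652 had a log2 ratio of -0.05 (counting error 0.01, adjusted p = 0.000328, exact binomial test) and Mir378a of -0.06 (0.02, adjusted p = 0.0202). Mir191 had a log2 ratio of -0.03 (counting error 0.02) and did not pass (adjusted p = 0.457). The features at 1000 CPM or more had a median absolute log2 ratio of 0.06 and a 90th percentile of 0.20, so these differences lay within the usual range between the libraries.

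With an overdispersion taken from the median gene, Mir425 (adjusted p = 0.00183) and Mir744 (0.0114) passed and Mir652 (0.0843) and Mir378a (0.389) did not; the test called 11.8% of all features and 45% of those at 1000 CPM or more. With the mean overdispersion none of the 5 passed, and 2.95% of features were called. With total counts as the scaling, Mir378a did not pass (adjusted p = 0.0913).

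**Figure D4:**
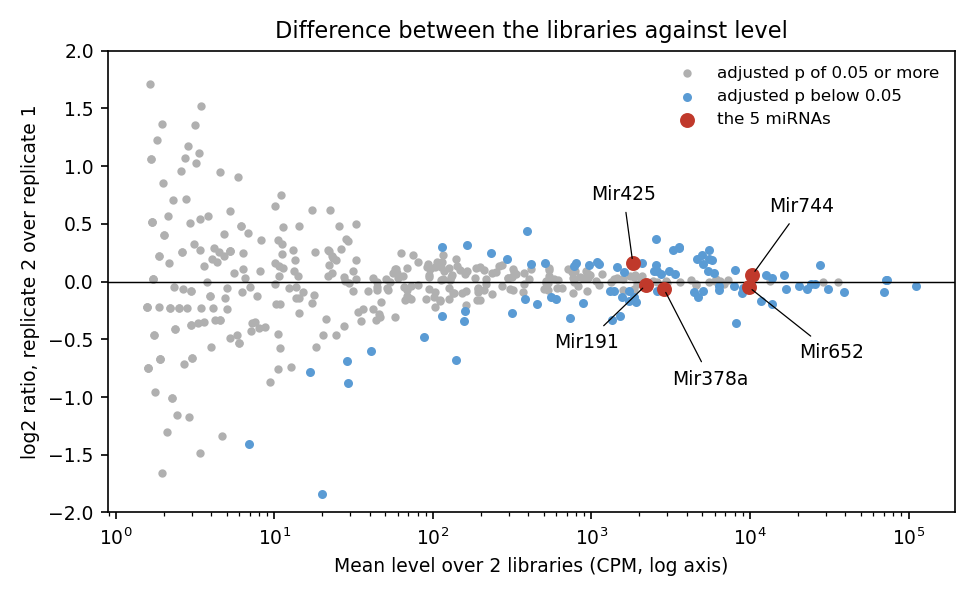
Log2 ratio of replicate 2 over replicate 1 against mean level (CPM, log axis) for miRNA genes with 10 or more counts; 2 genes lie outside the axis, below -2. Mir425, at 0.16, is the farthest of the 5 red points from 0, and the other 4 lie between -0.06 and 0.06.

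Genes of nearly the same level lie directly above and below each member. Likeness here is the gap in log2 mean CPM over the 2 libraries, and each level is that mean. Mirlet7g, a member of the let-7 family in Wdr82, stood 0.17 above Mir744, at 11686 CPM. Mir130b stood 0.06 below Mir652, at 9391 CPM. Around Mir378a were Mir376a (read opposite to Gm25252), at 2945 CPM, and Mir30d, at 2758 CPM. Around Mir191 were Mir27b, at 2313 CPM, and Mir125b-1, at 2113 CPM, both of which share hairpin sequence with another gene.

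Around Mir425 were Mir196a-2, at 1852 CPM, which also shares hairpin sequence, and Mir484, at 1762 CPM. The library values of Mir378a and Mir30d overlapped, as did those of Mir425 with both of its neighbours. At the other neighbours the libraries did not overlap.

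MiRNA genes inside same-strand protein-coding genes were common at all levels. By GENCODE M21, 858 of 1926 matched miRNA genes lay within such a gene, and 15.7% of these reached 10 CPM in both libraries, against 15.9% of the 1068 others. The median level of those that did was 217 CPM with a host and 329 CPM without. Among the genes with such a host, Mir744 ranked 13, Mir652 ranked 14 and Mir378a ranked 29. The hosted genes above Mir744 were led by Mir335 in Mest, at 111861 CPM, and Mir196b, which overlaps Hoxa9, at 70319 CPM.

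A list of 60 miRNAs with the protein-coding host they are usually assigned to sets the 5 members beside others by host function. It holds well-studied miRNAs and was drawn up with earlier results known, so its levels are a description. Of the 60, 59 had a value; for 56 of them GENCODE M21 places the hairpin in that host on the same strand. The exceptions were Mir191, Mir425 and Mir324, which is annotated in Dvl2 and opposite to Acadvl. In all, 53 of the 59 reached 10 CPM in both libraries, against 15.2% of all 2005 genes. Hairpins of 15 list genes share sequence with another gene, which can lower their counts.

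Mir744 ranked 8 in the list and the third among the 15 miRNAs of signalling and adhesion hosts. Above it in that group were Mir126a, in the endothelial gene Egfl7, at 24194 ± 84.2 CPM (SD, n = 2) and Mir26b, in the phosphatase gene Ctdsp1, at 16742 ± 423 CPM. The group median was 1547 CPM, and 14 of the 15 reached 10 CPM in both libraries. Mir744 was therefore one of the high members of a group that ran down to 8.67 CPM.

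Mir652 led the 14 miRNAs of membrane and transport hosts and ranked 9 in the whole list. The next in its group were Mir361, in the Rab escort gene Chm, at 2451 ± 17.7 CPM (SD, n = 2) and Mir188, in the chloride transporter gene Clcn5, at 2089 ± 62.2 CPM. The group median was 309 CPM. Mir652 was 4.07-fold above Mir361 in replicate 1 and 3.94-fold in replicate 2.

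Mir378a was the third of 7 miRNAs of metabolic hosts, with a group median of 1735 CPM. Mir335, in Mest, was far above it, and Mir324 stood at 4586 ± 34.6 CPM (SD, n = 2). By host found in GENCODE, Mir324 would not count as metabolic, and Mir378a would then be second to Mir335. The miRNAs of the pantothenate kinase genes share sequence among themselves, so their counts are uncertain; the highest of them, Mir107 in Pank1, had 1735 CPM.

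Mir191 and Mir425 lay in the middle of the 15 valued miRNAs of hosts that act on DNA, RNA or translation. The group median was 1821 CPM, which is the level of Mir425 itself. By host found in GENCODE, neither Mir191 nor Mir425 would count in this group, and its median would shift. All 15 reached 10 CPM in both libraries. The group was led by Mir30e, in the transcription factor gene Nfyc, at 20379 ± 279.8 CPM (SD, n = 2). Mir93 and Mir106b, in the replication gene Mcm7, followed at 13801 ± 315 and 12651 ± 441 CPM.

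The remaining groups hold none of the 5. Among 5 miRNAs of protein turnover hosts, Mir140 in the ubiquitin ligase gene Wwp2 led at 13764 ± 1195 CPM (SD, n = 2), followed by Mir98 in Huwe1 at 733 CPM and Mir340 in Rnf130 at 454 CPM. Among the 3 myosin-hosted miRNAs none reached 10 CPM in both libraries. Mir208b had 31.2 and 8.67 CPM, Mir499 had 5.08 and 4.05 CPM, and Mir208a had 5.08 and 1.73 CPM.

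Between the libraries, 21 of the 59 list genes passed the exact binomial test, 7 higher and 14 lower in replicate 2. Over all 440 features the shares were 9.55% higher and 12% lower. The list is richer in abundant genes: 26 of the 59 reached 1000 CPM in both libraries. Among features at a mean of 1000 CPM or more the test called 65%, so nothing is read from the list's count. The median log2 ratio of the list was -0.03, and that of all tested features was 0.00. Of the 7 higher, 2 were Mir744 and Mir425, and Mir93 and Mir106b of Mcm7 were also among them.

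**Figure D5:**
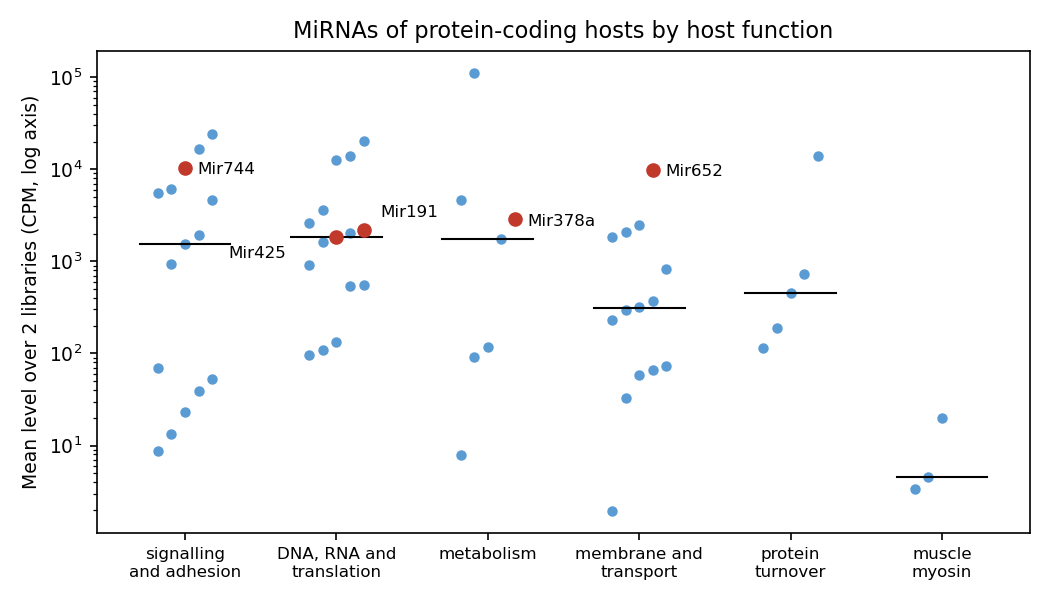
Mean level over both libraries (CPM, log axis) of the 59 list miRNAs by host function, with the group median as a line; side-to-side spacing only separates points. Mir652 heads its group at 9819 CPM, and Mir744 is the third of its group at 10357 CPM. Mir425 is the median of its group at 1821 CPM, with Mir191 higher at 2198 CPM and Mir15b between them.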

How the data were processed

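The authors deposited raw counts, with no normalization, for each miRNA gene in 1 file per library. Per the labels, reads were assigned on assembly mm10 with GENCODE M4. Which aligner and counter were used is not given in the sources used here. For 1973 genes, a file lists 3 count columns: both strands, and each strand alone. The strand with nearly all counts was taken as sense, from the values. Lines for unmapped (23.6% and 23.5% of reads), multimapping (24.7% and 23.4%) and unassigned reads (6.45% and 5.39%) stayed out of library sizes.

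Of the 1973 genes, 1894 matched GENCODE M21 by identifier. In the host list, 1 name (Mir7a-1, Mir7-1 in the files) was matched through RefSeq synonyms. Opposite-strand counts went to the unlisted miRNA gene annotated there, at 32 listed genes. CPM used the sense total of each library (2953085 and 3459176) for both strands. TMM factors came from edgeR 4.0.16 and size factors from DESeq2 1.42.0 in R 4.3.3; the rest used Python 3.11.15, scipy 1.17.1 and pandas 2.3.3. The quasi-likelihood test needs a second group, so the exact binomial test was used at 0.05, with a prior count of 0.5 for ratios. It was tested on simulated data with counting error alone. That simulation could not judge the test under the larger spread of these libraries (median overdispersion 2.61, mean 19.1).

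The members, the host list and the tests were chosen with earlier results of these data known. Genes named are the 5 members, their neighbours in level, the top 3 of each host group, seed sharers, and host mates of members. Mir378b, Mir378c, Mir378d, Mir196b, Mir107, Mir532 and Mir30c-1 were named after values were seen. Mir25, Mir501, Mir362, Mir15b, Mir16-2, Mir224 and Mir452, mates in other hosts, are also named outside these rules. Alternatives covered the denominator, the count column, scaling, filter, prior count, overdispersion, detection level and each library alone.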

Additional observations from a re-analysis of the deposited data

How the results depend on the processing

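Levels depend on the denominator. Scaled to all reads in place of sense counts, Mir744 had 4713, Mir652 4463, Mir378a 1300.4, Mir191 999.5 and Mir425 829 CPM; over both strands' counts Mir652 had 9601 and Mir191 2149.6 CPM. The other levels, and the Mir191 ratio, moved by no more than 1 SD. The library test called 95 features, and 52 or 13 with the median or mean overdispersion; in the other alternatives it called 88 to 99. Directions held for all 5 miRNAs in every alternative that gave a value; with sense features alone Mir191 and Mir378a gave none. Of the host list, 26 genes reached 1000 CPM. Leaving out each library in turn gave 53 or 54 list genes and, in an alternative chosen after seeing the data, 140 genes with a same-strand host at 10 CPM in place of 135. No paired analysis was possible because the series holds 1 group. Having 2 libraries limits every SD here.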

Other observations

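Hairpins of other hosts in the list also differed in how evenly their cluster was counted. In Mcm7, Mir93 exceeded Mir106b 1.09-fold but Mir25 15.0-fold, with 126 bases between the first pair and 118 between the other. In Clcn5, Mir188 exceeded Mir532 1.12-fold, Mir501 2.56-fold and Mir362 9.03-fold. In Smc4, Mir15b exceeded Mir16-2 3.83-fold, and Mir16-2 shares hairpin sequence with another gene. In the GABA receptor gene Gabre, Mir224 exceeded Mir452 5.14-fold. Between the libraries the log2 ratio within a host moved by 0.02 to 0.20, and the largest moves were those of Mir188 over Mir362 (-0.20, counting error 0.08) and Mir191 over Mir425 (-0.20, counting error 0.04).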
